A study of Mus musculus with 4 samples.

Results

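The genes described here are 10 genes of the ATF4 arm of the integrated stress response, measured by RNA-seq in primary mouse astrocytes. They were taken by exact gene symbol from the 25393 genes in the deposited table, and 10 of 10 were found: Atf4, Atf5, Ddit3, Trib3, Chac1, Sesn2, Phgdh, Psat1, Asns and Mthfd2. All 4 libraries came from untreated C57BL/6 astrocytes of cortex and hippocampus, isolated from mice at postnatal day 1, with 2 mice per isolation, and cultured for about a week. WT libraries (n = 2) carried wild-type Tet1, and KO libraries (n = 2) were labelled tet1-/-, from mice described as constitutive knockouts, in which every cell type of the culture would carry the deletion. Tet1 is an enzyme that oxidises 5-methylcytosine in DNA, and the study asked what its loss does to gene expression in astrocytes. More biological repeats per genotype are described for the study than were analysed here, and the labels do not say whether libraries of one label came from separate cultures, so p-values measure the spread between these libraries only.

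In the integrated stress response, kinases such as PERK, GCN2, PKR and HRI phosphorylate the translation factor eIF2. General translation then drops, while the mRNA of the transcription factor ATF4 is translated more. ATF4 binds DNA with C/EBP family partners and switches on genes for amino acid synthesis, amino acid uptake and tRNA charging, and, in prolonged stress, genes tied to cell death. In the brain astrocytes are a main site of serine synthesis, and Phgdh, the first enzyme of that pathway, is a known astrocyte gene.

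The 10 genes did not move as a block between WT and KO-labelled astrocytes. Phgdh and Mthfd2, enzymes of serine synthesis and mitochondrial folate metabolism, and Atf4 itself were higher in both KO-labelled libraries than in both WT libraries. Ddit3 and Chac1, genes of the late stress response, were lower in both. These 3 of 10 and 2 of 10 members stood beside 22.5% of all tested genes that were higher in this sense and 25.4% that were lower. Atf5, Trib3, Asns, Psat1 and Sesn2 overlapped between the labels. No member passed an adjusted p of 0.05 in limma, edgeR or DESeq2, and 4 of the 10 genes were more than 2-fold apart between the 2 KO-labelled libraries, against 28.6% of genes averaging at least 50 normalized counts.

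The libraries were checked before the members were compared. Reads on genes numbered 18749610 and 22673555 in WT replicates 1 and 2, and 20702980 and 22403163 in KO-labelled replicates 1 and 2. Values are normalized read counts, meaning reads divided by 1 size factor per library, and 1 read was worth 0.901 to 1.07 of them. Tet1 measured 266 and 121 normalized counts in WT against 173 and 463 in the KO-labelled libraries, a log2 fold change of 0.66 (SE 0.65, limma adjusted p = 0.691). The mean of Tet1 was therefore not lower in the libraries labelled KO. The deposited table holds 1 value per gene, and the deleted part of Tet1 could not be looked at separately. Gm48353 and Gm26479 overlap Tet1 on the same strand. All directions below rest on the label alone.

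The libraries also stood apart in markers of cell type, proliferation and sex. The 9 astrocyte markers, led by Gfap, summed to 156082 and 155161 normalized counts in WT and to 256721 and 45880 in the KO-labelled libraries. Gfap alone made up 174853 of the sum in KO-labelled replicate 1. In limma 7 of the 9 markers had log2 fold changes below 0, with a median of -0.68. This median was -1.65 without KO-labelled replicate 1 and -0.26 without replicate 2. Gfap and Aldoc, at -0.58 and -0.46 in limma, were above 0 in DESeq2, at 0.56 and 0.48. The median of the 9 markers in DESeq2 was -0.63. Aldh1l1, Slc1a3, Slc1a2, Aqp4 and Sox9 were lower in both KO-labelled libraries than in both WT libraries. These were 5 of the 9 markers, against 25.4% of all tested genes. Gja1 was higher in both, at 3557 and 5231 in WT and 7361 and 6344 in the KO-labelled libraries. This was 1 of the 9 markers, against 22.5% of all tested genes. KO-labelled replicate 2 lay below replicate 1 in 9 of 9 astrocyte markers, by more than 2-fold in 6. In bulk RNA, fewer cells of a type and less RNA per cell cannot be told apart. The 10 proliferation genes, led by Top2a, summed to 303 and 1444 in WT and 3786 and 7401 in the KO-labelled libraries, while 9 microglia genes, led by C1qa, summed to 1066 and 2539 against 178 and 100. The 8 oligodendrocyte lineage genes, led by Olig1, summed to 7314 and 11542 in WT and 18307 and 10897 in the KO-labelled libraries, while 5 of the 8 had log2 fold changes below 0, with a median of -0.40 (0.12 with quantile normalization, -1.64 without WT replicate 1 and -0.05 without WT replicate 2). The 7 neuron markers, led by Map2, summed to 4334 and 3817 against 4797 and 4618, with Snap25 at or under 3 reads in every library. Of the 6 neuron markers tested, 5 had log2 fold changes above 0, with a median of 1.73 (1.12 without KO-labelled replicate 2). The median lay between 0.95 and 2.17 in the alternatives that kept all 4 libraries. Dcx (2.25) and Rbfox3 (2.66) had at most 1.07 normalized counts in WT. Tubb3 had 1.80 and Syt1 1.66, while Stmn2 had 0.53 with overlapping labels and Map2 -0.01. For 8 genes of fibroblasts, mural and endothelial cells, led by Pdgfrb, the sums were 2593 and 3950 against 4371 and 2544, and 6 of the 8 had log2 fold changes below 0, with a median of -0.59 (-0.93 without WT replicate 1 and -0.32 without WT replicate 2).

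Xist, which is expressed from the inactive X chromosome, had 8.54 and 0.920 normalized counts in WT against 2896 and 13367 in the KO-labelled libraries. The Y-linked Eif2s3y had 956 and 659 in WT, 0 in KO-labelled replicate 1 and 261 in replicate 2. Differences in the sex make-up of the cultures and differences between the labels therefore cannot be told apart in these libraries. The part of cell type, proliferation and sex in the results below was not tested.

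DNA sequences near the start sites are shown because ATF4 with a C/EBP partner binds a composite element of known letters, and 3 members carry its core there. RefSeq promoter windows (GRCm38.p6, 250 bases before to 50 after a start) were matched for 10 of 10 members and searched on both strands. TGATGNAA was found in 3 of the 10 members, in 1219 of all 27025 gene symbols and in 3.97% of all 32851 promoter windows. This shortest core was chosen after the data were seen. The longer TGATGNAAT, which contains it, was in 0 members and 0.965% of windows, and TGATGCAAT in 0 members and 0.192%. The matching stretches are given on the strand of the gene, with the match in capitals.
Chac1: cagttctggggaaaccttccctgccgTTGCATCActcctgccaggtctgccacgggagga
Asns: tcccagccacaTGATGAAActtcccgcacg
Trib3: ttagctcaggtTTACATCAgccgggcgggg
The Chac1 stretch is chr2:119351023-119351082 on the plus strand, upstream of the first exon, and its match reads TGATGNAA on the opposite strand, at positions -193 to -186 from the RefSeq start. The Asns stretch is chr6:7693214-7693243 on the minus strand, at positions -34 to -5 from the RefSeq start, and lies inside the gene as deposited, which starts 45 bases further upstream. The Trib3 stretch is chr2:152344028-152344057 on the minus strand, bases 4 to 33 after the RefSeq start. Its match is on the opposite strand, at bases 15 to 22. The gene as deposited starts 28 bases downstream of the RefSeq start, so the match lies upstream of the deposited gene. A match is a run of letters and not evidence of binding. The windows of Psat1 and Mthfd2 were not at the start of the gene as deposited, since their nearest RefSeq starts lay 22278 and 8304 bases from it.

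**Figure D1:**
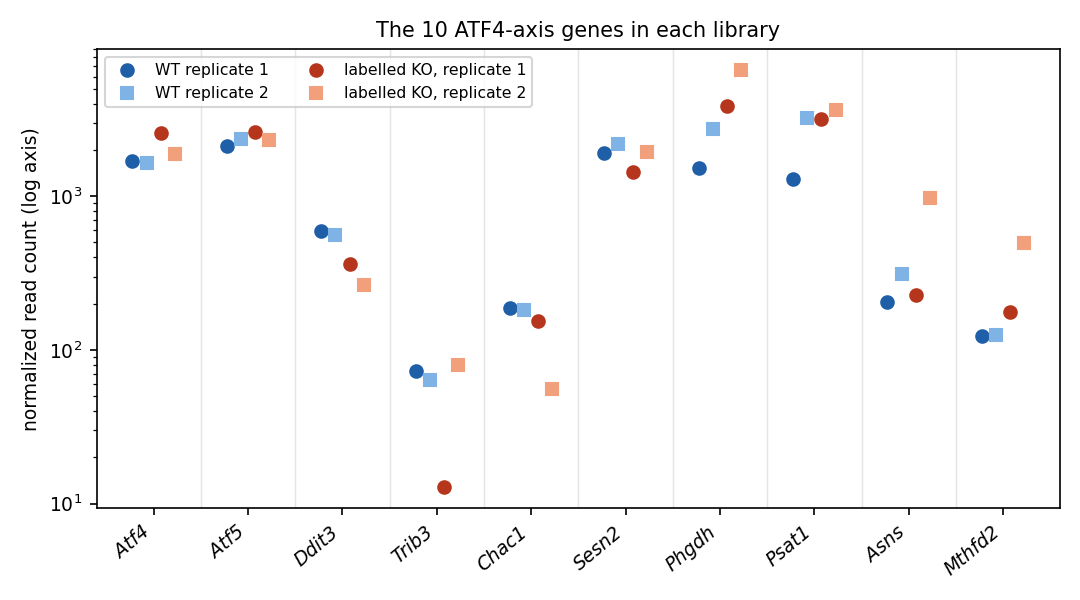
Normalized read count (log axis) of each of the 10 genes in the 4 libraries; circles are replicate 1 and squares replicate 2, blue is WT and red is labelled KO. Phgdh, Mthfd2 and Atf4 lie higher in both KO-labelled libraries, Ddit3 and Chac1 lower, and Trib3, Asns, Mthfd2 and Chac1 differ more than 2-fold between the 2 KO-labelled libraries.

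Atf4 (ENSMUSG00000042406, chr15:80255184-80257541, plus strand), the transcription factor at the centre of the response, had 1693 and 1656 normalized counts in WT against 2588 and 1888 in the KO-labelled libraries. Both KO-labelled values lay above both WT values, with means of 2238 ± 495 against 1675 ± 26.3 (SD, n = 2). This gave a log2 fold change of 0.40 (SE 0.30, limma adjusted p = 0.599), which was 0.17 without KO-labelled replicate 1 and 0.63 without replicate 2. ATF4 is controlled largely by translation, which RNA-seq does not measure.

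Atf5 (ENSMUSG00000038539, chr7:44812256-44816658, minus strand), a related factor that is also controlled through eIF2, had 2123 and 2350 in WT and 2611 and 2328 in the KO-labelled libraries. These 4 values overlapped, and the log2 fold change of 0.14 (SE 0.27, limma adjusted p = 0.848) was smaller than its error and ranged from 0.06 to 0.22 without single libraries. Of the 10 members it had the smallest difference between the 2 KO-labelled libraries. Atf5 overlaps 2 genes on the other strand, Nup62 and Il4i1, and whether the counting used strand is not given in the sources used here.

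Ddit3 (ENSMUSG00000025408, chr10:127290774-127296288, plus strand) encodes CHOP, a factor tied to cell death in prolonged stress. It had 594 and 563 normalized counts in WT against 364 and 263 in the KO-labelled libraries, so that the KO-labelled mean was 54.2% of the WT mean. The groups did not overlap and the libraries of each label lay close together. limma gave a log2 fold change of -0.90 (SE 0.34, limma adjusted p = 0.355), and DESeq2 gave -0.88 with an adjusted p of 0.349. Without any one library it stayed between -1.13 and -0.67. Ddit3 overlaps 3 other annotated genes: a second protein-coding entry of the same symbol on the same strand, and Mars and Gm4189 on the other strand. How reads shared with these were counted is not given in the sources used here.

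Chac1 (ENSMUSG00000027313, chr2:119351229-119354381, plus strand), a glutathione-degrading enzyme downstream of ATF4 and CHOP, had 187 and 183 in WT and 155 and 55.9 in the KO-labelled libraries. Both KO-labelled values were lower, but replicate 1 was close to WT and was 2.78 times replicate 2. The log2 fold change was -0.98 (SE 0.60, limma adjusted p = 0.519), and it was -0.25 without KO-labelled replicate 2 and -1.71 without replicate 1.

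Trib3 (ENSMUSG00000032715, chr2:152337422-152344032, minus strand), a pseudokinase that is a target of CHOP and ATF4 and dampens the response, had 72.6 and 63.5 in WT and 12.8 and 80.2 in the KO-labelled libraries. KO-labelled replicate 1 was far below the other libraries and replicate 2 was the highest of the 4, 6.25 times replicate 1. The log2 fold change of -1.04 (SE 0.93, limma adjusted p = 0.653) therefore depended on 1 library, and became 0.24 without KO-labelled replicate 1.

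Sesn2 (ENSMUSG00000028893, chr4:132492032-132510501, minus strand), a leucine sensor that restrains mTORC1, had 1911 and 2200 in WT and 1438 and 1942 in the KO-labelled libraries. The values overlapped, with a log2 fold change of -0.29 (SE 0.30, limma adjusted p = 0.702), which ranged from -0.51 to -0.08 without single libraries. Gm12981 overlaps Sesn2 on the same strand.

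Phgdh (ENSMUSG00000053398, chr3:98313170-98339990, minus strand) makes the first step from glycolysis into serine. It had 1535 and 2727 normalized counts in WT against 3869 and 6608 in the KO-labelled libraries, with means of 2131 ± 842 and 5239 ± 1937 (SD, n = 2), a 2.46-fold difference. All KO-labelled values lay above all WT values, although within each label replicate 2 was 1.71 times or more replicate 1. In limma the difference was 1.30 (log2 fold change, SE 0.44, limma adjusted p = 0.314), and DESeq2 gave an adjusted p of 0.162. It lay between 0.89 and 1.72 when any one library was left out.

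Psat1 (ENSMUSG00000024640, chr19:15904678-15947337, minus strand), the next enzyme of serine synthesis, had 1303 and 3209 in WT and 3199 and 3633 in the KO-labelled libraries. WT replicate 1 stood below the other 3, and the WT pair differed 2.46-fold. The log2 fold change of 0.74 (SE 0.48, limma adjusted p = 0.548) was 0.09 without WT replicate 1 and 1.39 without WT replicate 2. A processed pseudogene overlaps Psat1 on the other strand.

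Asns (ENSMUSG00000029752, chr6:7675169-7693254, minus strand), asparagine synthetase and a classical ATF4 target, had 205 and 313 in WT and 226 and 969 in the KO-labelled libraries. KO-labelled replicate 1 lay between the WT values and replicate 2 was 4.29 times replicate 1. Its log2 fold change of 0.88 (SE 0.74, limma adjusted p = 0.630) thus came from KO-labelled replicate 2, without which it was -0.16.

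Mthfd2 (ENSMUSG00000005667, chr6:83305691-83325908, minus strand), a mitochondrial enzyme of the folate cycle, had 123 and 125 in WT and 176 and 498 in the KO-labelled libraries. The WT values nearly coincided, both KO-labelled values lay above them, and replicate 2 was 2.84 times replicate 1. Its log2 fold change was 1.25 (SE 0.58, limma adjusted p = 0.424), and it was 0.50 without KO-labelled replicate 2. DESeq2 gave 1.44 with an adjusted p of 0.219. Gm43890 overlaps Mthfd2 on the same strand.

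**Figure D2:**
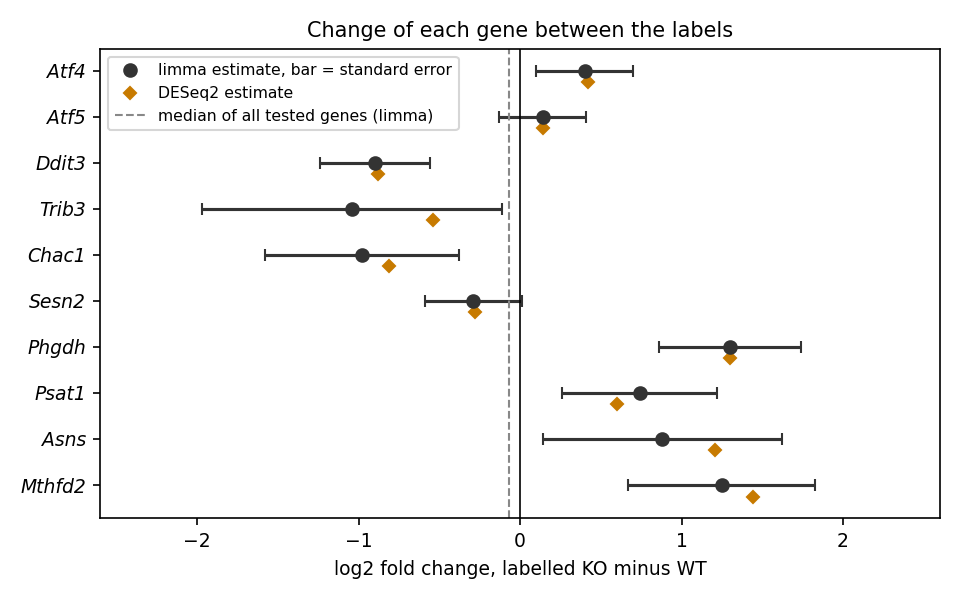
Log2 fold change of each gene, labelled KO minus WT (horizontal axis); black points with bars are limma estimates with the standard error, orange diamonds are DESeq2 estimates, and the dashed line is the median of all tested genes, -0.07. Values run from -1.04 for Trib3 to 1.30 for Phgdh, with the widest bar for Trib3.

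Counted over the members, 6 of 10 log2 fold changes were above 0 and 4 below, with a median of 0.27 beside -0.07 over all 22094 genes tested. The median was 0.08 without WT replicate 1 and 0.03 without KO-labelled replicate 2. At an unadjusted limma p under 0.05, 2 of 10 members were called, Phgdh higher and Ddit3 lower, against a background of 13.7% of all tested genes, 4.54% higher and 9.18% lower. With quantile normalization the background split was 1417 genes higher and 1490 lower in place of 1004 and 2028, and the 2 members called were Phgdh and Mthfd2, both higher. The number of members called was 0 without WT replicate 1 (5.14% of all tested genes), 1 without WT replicate 2 (Psat1, 6.25% of all tested genes) and 5 without KO-labelled replicate 1 (21.9% of all tested genes). In the last of these settings Ddit3, Asns, Chac1, Phgdh and Mthfd2 were called. Without KO-labelled replicate 2 it was again 2, Atf4 higher and Trib3 lower, against 13.4% of all tested genes.

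Both KO-labelled values lay above both WT values in 3 of 10 members, against 22.5% of all tested genes, and below them in 2 of 10, against 25.4%. These shares were close to the background. DESeq2 called 6.50% of the genes to which it gave an adjusted p and 0 of the 10 members, and limma and edgeR called 0 genes at an adjusted p of 0.05, with 3032 and 2377 at an unadjusted p under 0.05. An exact permutation test of 2 against 2 libraries cannot give a two-sided p below 0.333.

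Differences inside a label were as large as those between the labels for several members. Of 12868 genes averaging at least 50 normalized counts, the KO-labelled pair differed more than 2-fold in 28.6% and the WT pair in 10.7%. For the members it was 4 of 10 and 1 of 10. Trib3, Asns and Mthfd2 were more than 2-fold higher in KO-labelled replicate 2, a direction and size found in 14.4% of those genes, while Chac1 was higher in replicate 1. In the astrocyte markers the order of the 2 KO-labelled libraries was the other way round, as given above.

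**Figure D3:**
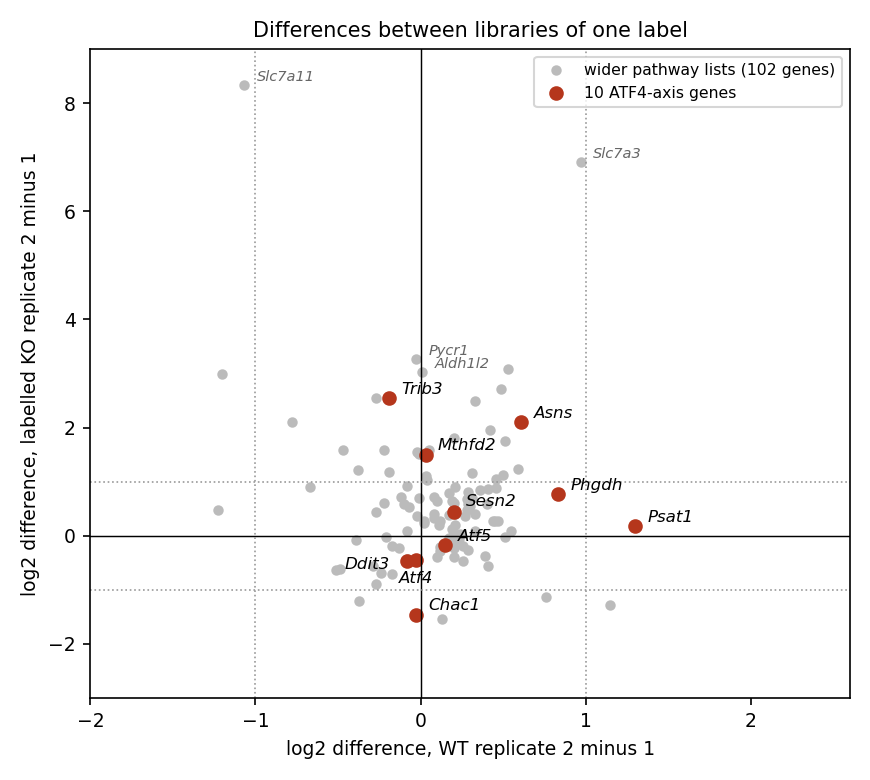
Log2 difference between the 2 WT libraries (horizontal axis) and between the 2 KO-labelled libraries (vertical axis), replicate 2 minus replicate 1; red points are the 10 genes, grey points 102 genes of the wider stress response lists, and dotted lines mark 2-fold. Asns, Trib3 and Mthfd2 lie above the upper dotted line with Slc7a11 and Slc7a3 far above them, Chac1 lies below the lower one, and Psat1 differs more than 2-fold in WT.

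Levels were compared between genes per length, as FPKM computed from the recovered reads. By the mean of all 4 libraries Phgdh was the most abundant member, at 30.9 and 52.6 FPKM in WT and 70.2 and 132 in the KO-labelled libraries, with 97.3% of listed genes below it. In WT, Atf5 was above Phgdh in both libraries, with means of 54.9 ± 2.34 and 41.7 ± 15.4 FPKM (SD, n = 2). In the order over all 4 libraries Atf5 followed at a mean of 56.7 FPKM (range 53.3 to 59.1), then Atf4 at 39.7, Psat1 at 31.9, Sesn2 at 26.0, Ddit3 at 12.6, Asns at 7.62, Chac1 at 4.26, Mthfd2 at 3.21 and Trib3 at 1.32. Over the 4 libraries, ranges of neighbours in this order overlapped in 7 of 9 pairs. They were separate between Atf5 and Atf4 and between Sesn2 and Ddit3.

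Ratios of FPKM inside 1 library do not depend on its size factor. The ratio of Mthfd2 to Ddit3 was 0.101 and 0.109 in WT and 0.237 and 0.930 in the KO-labelled libraries. It had to be higher in both, since Mthfd2 was higher and Ddit3 lower in both, and it adds no further result. The ratio of Asns to Chac1 was 0.657 and 1.02 in WT, 0.871 in KO-labelled replicate 1 and 10.4 in replicate 2. The ratio of Phgdh to Atf4 was 0.860 and 1.56 in WT and 1.42 and 3.32 in the KO-labelled libraries, which overlapped. Atf5 to Atf4 stayed between 1.19 and 1.68. These pairs were chosen after the values were seen.

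Upstream of ATF4, 1 of the 6 eIF2 kinase and phosphatase subunit genes passed an unadjusted p of 0.05 in limma, against 13.7% of all tested genes. This was Eif2ak2, and it did not pass with a pseudocount of 0.1, a mean minimum of 10, no filter, scaling to equal sums, eBayes without trend or edgeR, nor without either WT library or KO-labelled replicate 1. Eif2ak2 encodes PKR, the kinase that senses double-stranded RNA and is induced by interferon. It had 2077 and 1206 normalized counts in WT against 206 and 891 in the KO-labelled libraries, a log2 fold change of -1.88 (SE 0.74, limma adjusted p = 0.361). Without KO-labelled replicate 1 this was -0.83, and without replicate 2 it was -2.94. Eif2ak1 (HRI), Eif2ak3 (PERK) and Eif2ak4 (GCN2) had log2 fold changes of 0.19, 0.14 and 0.29. Without single libraries these ranged from 0.07 to 0.30, 0.03 to 0.24 and 0.07 to 0.50. Ppp1r15a and Ppp1r15b, which bring phosphatase to eIF2, had 0.14 and -0.12. The list had 4 of 6 values above 0 and a median of 0.14, which lay between 0.01 and 0.11 without single libraries. Relative to the median of all tested genes it was 0.21, and 0.01 with quantile normalization.

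Subunits of eIF2 and of its exchange factor eIF2B had log2 fold changes above 0 in 8 of 8 genes, with a median of 0.58. The groups were separate in 5 of 8, all higher in the KO-labelled libraries, against 22.5% of all tested genes. Eif2s3x, the gamma subunit of eIF2, had 1869 and 1894 normalized counts in WT against 4485 and 5420 in the KO-labelled libraries. Both labels were tight and the difference was 2.63-fold, with a log2 fold change of 1.39 (SE 0.28, limma adjusted p = 0.179, DESeq2 adjusted p = 0.0201). Eif2s3x is X-linked and escapes X inactivation, and its Y-linked copy Eif2s3y and Xist had the values given above. Eif2s1, the subunit that the kinases phosphorylate, had 815 and 998 against 1299 and 2269, and Eif2b1, a subunit of the exchange factor, 364 and 519 against 720 and 710, separate in each case, with adjusted p of 0.371 and 0.422 in limma.

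Most of the bZIP partners and related factors differed in the other direction, with 7 of 8 log2 fold changes below 0 in limma and a median of -0.92. Of these 7, Nfe2l2 was near 0, at -0.01 in limma and 0.01 in DESeq2. Nupr1 overlapped between the labels, at -0.93 in limma and -0.25 in DESeq2. Cebpb, a C/EBP partner of ATF4, had 2253 and 1586 normalized counts in WT against 516 and 332 in the KO-labelled libraries. Its log2 fold change was -2.19 (SE 0.37, limma adjusted p = 0.148, DESeq2 adjusted p = 6.65e-04). Cebpd, a C/EBP factor of inflammatory and glial responses, had 12978 and 12773 against 2996 and 3857, with -1.92 (SE 0.30, limma adjusted p = 0.139, DESeq2 adjusted p = 4.51e-04). Cebpb and Cebpd were thus lower in DESeq2, with wider gaps between the labels than inside them.

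Atf3, a repressor that ATF4 induces, had 500 and 443 against 227 and 139, with -1.40 (SE 0.40, limma adjusted p = 0.264, DESeq2 adjusted p = 0.0959). In this list 3 of 8 genes passed an unadjusted p of 0.05, all lower, against 9.18% of all tested genes. The groups were separate in 5 of 8, all lower, against 25.4%. The median was -0.38 without KO-labelled replicate 1 and -1.44 without replicate 2.

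Enzymes of serine, glycine, proline and one-carbon metabolism had 10 of 13 log2 fold changes above 0 and a median of 0.45, which was 0.05 without KO-labelled replicate 2 and 0.81 without replicate 1. Cth, which makes cysteine from cystathionine, had 150 and 107 normalized counts in WT against 506 and 329 in the KO-labelled libraries, with 1.68 (SE 0.42, limma adjusted p = 0.232, DESeq2 adjusted p = 0.0280). Cbs, the enzyme before it in the same pathway, was lower, at 523 and 404 against 245 and 105 (log2 fold change -1.51, SE 0.51, limma adjusted p = 0.316). Without single libraries the value for Cbs ranged from -2.11 to -0.90. Neighbouring enzymes of 1 pathway thus had opposite signs.

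Aldh1l2, a mitochondrial folate enzyme, had 206 and 207 in WT, 262 in KO-labelled replicate 1 and 2144 in replicate 2. Its log2 fold change was 1.86 (SE 0.97, limma adjusted p = 0.463, DESeq2 adjusted p = 0.0484) and was 0.34 without replicate 2. Pycr1, of proline synthesis, had 107 and 105 in WT, 56.7 in KO-labelled replicate 1 and 552 in replicate 2. Mthfd1l, a partner of Mthfd2 in mitochondria, had 145 and 182, 136 and 772. The last 2 genes were chosen after their values were seen, and like Asns they were high in KO-labelled replicate 2 alone.

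Of the 10 wider lists, the amino acid carriers had the widest median gap between the 2 KO-labelled libraries (1.46 on the log2 scale), with 7 of 10 more than 2-fold higher in replicate 2. Slc7a11, the cystine carrier, had 799 and 381 normalized counts in WT, 23.5 in KO-labelled replicate 1 and 7975 in replicate 2. Slc7a3, a carrier of cationic amino acids, had 23.5 and 46.9 in WT, 9.63 and 1289. Both were chosen after their values were seen. For Slc7a11 even the sign of the log2 fold change depended on the method, at -0.32 in limma (SE 2.58) and 2.76 in DESeq2. For Slc7a3 limma gave 1.77 (SE 2.18, adjusted p = 0.752) and DESeq2 4.20 (adjusted p = 0.0300).

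Slc7a1, another cationic amino acid carrier, had 354 and 407 in WT and 727 and 2526 in the KO-labelled libraries, with 1.83 (SE 0.62, limma adjusted p = 0.316, DESeq2 adjusted p = 0.0308), and 0.93 without replicate 2. Slc7a5, which carries leucine and other large neutral amino acids, had 924 and 1238 against 1499 and 5823. Slc1a4, which carries serine and alanine, had 1645 and 2258 against 2341 and 4818. These 3 genes were named because their groups were separate, and KO-labelled replicate 2 was above replicate 1 in each. The list had 8 of 10 values above 0, 4 of 10 separate and higher (22.5% of all tested genes), and a median of 0.48, which was 0.28 without KO-labelled replicate 2, 1.03 without replicate 1, and 0.25 and 0.76 without WT replicate 1 and 2. Relative to the median of all tested genes it was 0.55, and 0.31 with quantile normalization.

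**Figure D4:**
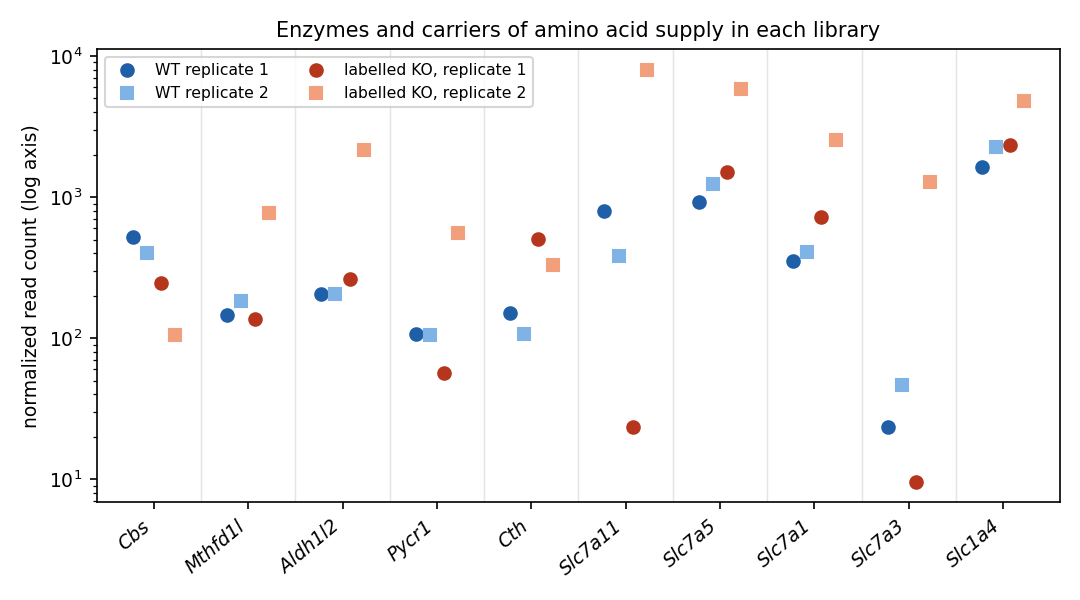
Normalized read count (log axis) of 5 enzymes and 5 carriers of amino acid supply in the 4 libraries; circles are replicate 1 and squares replicate 2, blue is WT and red is labelled KO. KO-labelled replicate 2 is the highest library for all but Cbs and Cth, and Slc7a11, Slc7a3, Pycr1 and Mthfd1l have their lowest value in KO-labelled replicate 1.

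Cytosolic tRNA synthetases, which charge tRNAs with amino acids, had log2 fold changes between -0.05 and 0.84. Among those reported as ATF4 targets, 12 of 12 were above 0, with a median of 0.24, and 7 of 12 were separate and higher, against 22.5% of all tested genes. Among those not usually listed as targets, 7 of 8 were above 0, with a median of 0.39, and 5 of 8 were separate and higher. These medians were 0.14 and 0.13 without KO-labelled replicate 2, and 0.54 and 0.67 without replicate 1. Relative to the median of all tested genes they were 0.31 and 0.46, and 0.07 and 0.24 with quantile normalization. Tars had the largest value of the former, with 786 and 955 normalized counts in WT against 1325 and 1830 in the KO-labelled libraries (0.84, SE 0.32, limma adjusted p = 0.355). Gars and Iars had 0.64 and 0.57, and Farsa, Rars and Hars of the latter list 0.66, 0.64 and 0.56. Without single libraries Gars ranged from 0.35 to 0.94, Iars from 0.23 to 0.92, Farsa from 0.38 to 0.93, Rars from 0.13 to 1.15 and Hars from 0.34 to 0.78.

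Of 12 other stress targets, 6 had log2 fold changes above 0 and 6 below, with a median of -0.15. This median was 0.33 without KO-labelled replicate 1. Gadd45a, a growth arrest gene, had 1849 and 1415 normalized counts in WT against 732 and 695 in the KO-labelled libraries (-1.18, SE 0.30, limma adjusted p = 0.233, DESeq2 adjusted p = 0.0878). Ddit4, an inhibitor of mTORC1, had 1670 and 1837 against 2977 and 2632, with 0.68 (SE 0.28, limma adjusted p = 0.373). Both genes were tight within each label and lay on opposite sides of WT. Tnfrsf10b, a death receptor induced by CHOP, had 419 and 521 against 595 and 1335, with 0.93 (0.35 to 1.51 without single libraries). Fgf21, a secreted ATF4 target, is not among the genes listed.

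The ATF6 and XBP1 chaperone genes mark the other arms of the endoplasmic reticulum stress response. Here 12 of 17 log2 fold changes were above 0, the median was 0.35, and 9 were separate and higher, against 22.5% of all tested genes. Hyou1, a chaperone, had 2126 and 2203 in WT and 3059 and 9153 in the KO-labelled libraries, with 1.29 (SE 0.55, limma adjusted p = 0.390), which was 0.50 without replicate 2. Manf, a secreted protein of the endoplasmic reticulum, had 2068 and 2841 against 3577 and 6579. Atf6, the sensor of this arm, had 988 and 922 against 1548 and 2324, with 0.99 (SE 0.33, limma adjusted p = 0.310). As for Mthfd2, KO-labelled replicate 2 was the highest library for all 3. The list's median was 0.83 without KO-labelled replicate 1. Relative to the median of all tested genes it was 0.42, and 0.14 with quantile normalization.

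Of 8 genes of the mitochondrial stress relay and chaperones, 6 had log2 fold changes above 0, with a median of 0.23. Relative to the median of all tested genes this was 0.30, and 0.07 with quantile normalization. The chaperonins Hspd1 and Hspe1 had 0.93 and 0.66, and 0.37 and 0.36 without KO-labelled replicate 2. Dele1, which relays mitochondrial stress to HRI, had 694 and 615 normalized counts in WT against 915 and 799 in the KO-labelled libraries (0.39, SE 0.29, limma adjusted p = 0.603). The groups were separate and higher in 5 of the 8 genes, against 22.5% of all tested genes, and overlapped in the other 3.

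**Figure D5:**
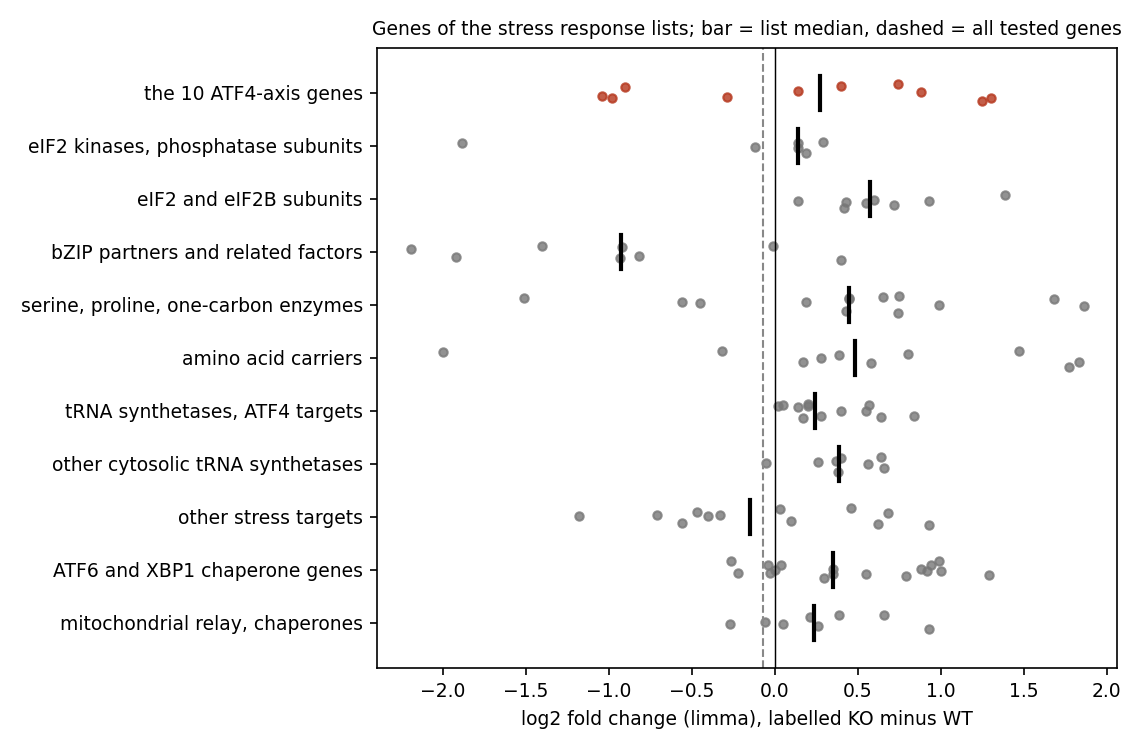
Log2 fold change, labelled KO minus WT (horizontal axis), of each tested gene in the 10 ATF4-axis genes (red) and 10 wider lists (grey); vertical bars are list medians and the dashed line is the median of all tested genes, -0.07. The list of bZIP partners has the lowest median, -0.92, and the eIF2 and eIF2B subunits the highest, 0.58.

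Over the 102 genes of the wider lists, 74 log2 fold changes were above 0 and 28 below, with a median of 0.33 (0.38 in DESeq2). The lists were written with earlier results of these data known. With quantile normalization most list medians moved towards that of all tested genes. Those of the other stress targets and of the serine, glycine, proline and one-carbon enzymes moved away from it. At an unadjusted limma p under 0.05 there were 6 higher and 6 lower, against 4.54% and 9.18% of all tested genes. In 44 of the 102 the groups were separate and higher and in 10 separate and lower, against 22.5% and 25.4%. DESeq2 called 5 higher (Eif2s3x, Cth, Aldh1l2, Slc7a1 and Slc7a3) and 2 lower (Cebpb and Cebpd). The background was 1.69% and 4.80% of the genes to which it gave an adjusted p. Slc7a3, X-linked like Eif2s3x, had 9.63 in KO-labelled replicate 1, below the WT values of 23.5 and 46.9. Aldh1l2 had a limma log2 fold change of 0.34 without KO-labelled replicate 2. Between the KO-labelled libraries, 26 of the 102 were more than 2-fold higher in replicate 2 and 4 in replicate 1, against 14.4% and 14.2% of genes averaging at least 50 normalized counts.

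The genes whose pattern over the 4 libraries was most like the mean of the members were Ttll12, Sap130 and Zcchc8, by Euclidean distance of centred log2 values among 12717 genes. The members' mean stood at -0.21 and 0.06 in WT and -0.17 and 0.33 in the KO-labelled libraries, around a mean of 0. Ttll12 had 1392 and 1653 normalized counts in WT against 1423 and 2010 in the KO-labelled libraries, at a distance of 0.022. Sap130 and Zcchc8 were at 0.050 and 0.053. In this mean pattern KO-labelled replicate 1 sat among the WT libraries and replicate 2 was the highest.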

How the data were processed

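Paired-end Illumina reads were filtered and aligned to mm10 by the authors; the aligner, counter, strand setting and annotation release are not given in the sources used here. The deposited signal values, 1 per gene and library, are named as FPKM but are reads divided by a size factor (0.937 and 1.09 in WT, 0.934 and 1.11 in KO). 100% of values came out as whole reads within 0.1 read, and the count tests ran on these recovered reads. The authors also deposited group means, fold changes and p-values, which were not used.

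Members and lists were chosen with earlier results of these data known. The design had taken the values as read counts over a size factor, which the files bore out. limma 3.58.1 (R 4.3.3; lmFit, eBayes with trend) was fitted, without a block, to log2(normalized count + 1) of 22094 genes averaging at least 1, with Benjamini-Hochberg adjustment; this scale understates changes of low genes. edgeR 4.0.16 (quasi-likelihood, TMM) and DESeq2 1.42.0 were alternatives. Other alternatives were pseudocounts of 0.1 and 10, a mean minimum of 10, no filter, 3 scalings, eBayes without trend, a replicate block and leaving out each library. FPKM used recovered reads, deposited gene lengths and reads on genes. The tests were tried on simulated data with known changes. Named genes were the members, Tet1, the eIF2 kinases and phosphatase subunits, up to 3 genes per other list with the largest log2 fold change among those not overlapping between labels (mean at least 10), and the 3 genes most like the members' mean. Annotation overlaps and gene positions come from GENCODE M21 on GRCm38. Plots used Python 3.11.15 and matplotlib 3.10.9.

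Libraries of one label differed beyond counting error: over genes with at least 20 reads the median chi-square was 8.04 in WT and 27.1 in KO against 0.455 from counting alone. They were therefore not taken as repeat deposits of 1 library; this does not show that they came from separate cultures, and each was counted as 1 replicate by its label. Counts of 3 reads were worth 2.70 to 3.21 normalized counts. 1 microglia marker is not reported here.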

Additional observations from a re-analysis of the deposited data

How the results depend on the processing

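Over 15 alternatives, 8 of 10 members kept the sign of their log2 fold change; the exceptions were Trib3 (0.24 without KO-labelled replicate 1, range -2.31 to 0.24 over left-out libraries) and Asns (-0.16 without replicate 2, range -0.16 to 1.93). The number of members at an unadjusted p under 0.05, 2 in limma, was 1 with median log ratio scaling (Phgdh, without Ddit3), 0 with eBayes without trend, and 0 to 5 when libraries were left out. Quantile normalization and DESeq2 each called Phgdh and Mthfd2 in place of Phgdh and Ddit3. With a replicate block it was 1 (Phgdh); deviations of same-numbered libraries had a correlation of -0.08 over 22094 genes, so the numbers were not taken as pairs. The members' median of 0.27 ranged from 0.03 to 0.30 without single libraries and was 0.15 with quantile normalization, which moved the median of all genes from -0.07 to 0.08; relative to all genes it was 0.34 and then 0.08. All genes past an adjusted p of 0.05 numbered 0 in limma and edgeR and 1106 in DESeq2, and genes at an unadjusted p under 0.05 numbered 1135 to 4846 without single libraries. Tet1 ranged from -0.05 to 1.36, below 0 without KO-labelled replicate 2.

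Signs also changed for Slc7a11 (2.78 in edgeR, 2.76 in DESeq2, -4.49 to 3.85 without single libraries), Slc7a3 (-1.69 to 5.24), Pycr1 (-0.89 to 2.37), Mthfd1l (-0.26 to 2.24), Ppp1r15a (-0.06 to 0.34) and Ppp1r15b (-0.32 to 0.07). The cause was not tested. With 1 library left in a label, that library is assumed to vary like the others. FPKM and TPM gave the same order of members. The shortest promoter core was chosen after seeing the data. The lowest count of any member was 12.8 normalized counts, for Trib3 in KO-labelled replicate 1.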
